A study of Mus musculus with 8 samples.

Results

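Resting NKT-like cells were the liver T cells that carried transcripts of Zbtb16 and Klrb1c, none of the cycling genes Mki67 and Top2a, and few or none of a set of NF-kB target genes. A barcode belonged to them when it had between 200 and 2500 detected genes and at most 30% mitochondrial UMIs. It also needed at least 1 UMI of Cd3e or Cd3d, of Zbtb16 and of Klrb1c, and 0 UMIs of Cd8a, Ncr1, Trdc, Kdr, Cd79a, Clec4f, Mki67 and Top2a. At most 2 of the 7 NF-kB target genes Icam1, Bcl3, Relb, Gadd45b, Furin, Bcl2a1b and Bcl2a1d could be detected. The cells were thus selected on the measured UMIs of these 19 genes, whose levels are described below without a test. Of 127557 barcodes, 48465 passed the limits on genes and mitochondrial UMIs, and 1154 of those were resting NKT-like cells.

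The cells came from livers of 9-week-old female C57BL/6J mice that carried no tumor. The 4 BG libraries, numbered 5 to 8, came from mice given 1.2 mg of a soluble β-glucan (BG, odetiglucan or Imprime PGG) intravenously and taken on day 2. The 4 control libraries, numbered 1 to 4, came from untreated control mice. Livers were perfused, cut up and digested with collagenase and DNase, dead cells were removed, and CD45+ cells were enriched. Cells of the Ficoll buffy coat made from the flow-through were added back to recover more Kupffer cells (KCs), and single-cell libraries were made from the 3' ends of transcripts. The control mice gave 198, 100, 168 and 161 resting NKT-like cells and the BG-treated mice gave 75, 237, 108 and 107. BG is a Dectin-1 agonist. The study found labelled BG in the liver on a part of each major leukocyte type, T cells among them, and most often on macrophages. The comparison asks how these lymphocytes differed when the liver had been exposed to BG.

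Natural killer T (NKT) cells are T cells of limited receptor diversity that recognise lipids shown by CD1d, and they are abundant in the mouse liver, where they patrol the sinusoids beside KCs. Their development depends on the transcription factor PLZF, encoded by Zbtb16. They carry receptors otherwise typical of NK cells, such as NK1.1, encoded by Klrb1c, and can release IL-4 and IFN-γ within hours of stimulation without prior priming. Because they also respond to cytokines from myeloid cells, they can change state without a lipid antigen.

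Beyond the genes of the rule, the cells carried the other markers given for liver NKT cells. At least 1 UMI of Cxcr6, the chemokine receptor that holds NKT cells in liver sinusoids, was found in 78.3%, 77.0%, 70.2% and 72.0% of the cells of the control mice and in 58.7%, 78.5%, 71.3% and 79.4% of those of the BG-treated mice. The ranges of both groups overlapped. Il2rb, the receptor chain shared by IL-2 and IL-15, was found in 92.1% of cells of control mice and 94.7% of cells of BG-treated mice (means of 4 mice). Il4 was found in 20.9% and 22.3%. In B cells, which should lack these genes, the corresponding shares were 1.54% and 1.63% for Cxcr6, 3.51% and 5.79% for Il2rb, and 0.197% and 0.305% for Il4. The median cell of a library held 2625.5 to 4161 UMIs in resting NKT-like cells and 1512 to 2259 in B cells. Cxcr6 and Il2rb were also found in the other lymphocyte classes described below. Other resting T cells held Cxcr6 in 46.01% and 47.7%, Il2rb in 63.3% and 67.8%, and Il4 in 8.81% and 11.2%. NK and ILC1-like cells held Cxcr6 in 22.6% and 22.01%, and Il2rb in 91.1% and 92.2%. Library medians were 2330.5 to 3321 UMIs in the former class and 2065.5 to 3166.5 in the latter. Il2rb thus did not set resting NKT-like cells apart from NK and ILC1-like cells. In NK and ILC1-like cells Il4 was found in 0 of 935 cells, which allows up to 0.321% of cells with a UMI and does not limit the share that transcribe it.

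The plot of marker shares sets the cells beside other resting T cells, NK and ILC1-like cells and B cells.

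**Figure D1:**
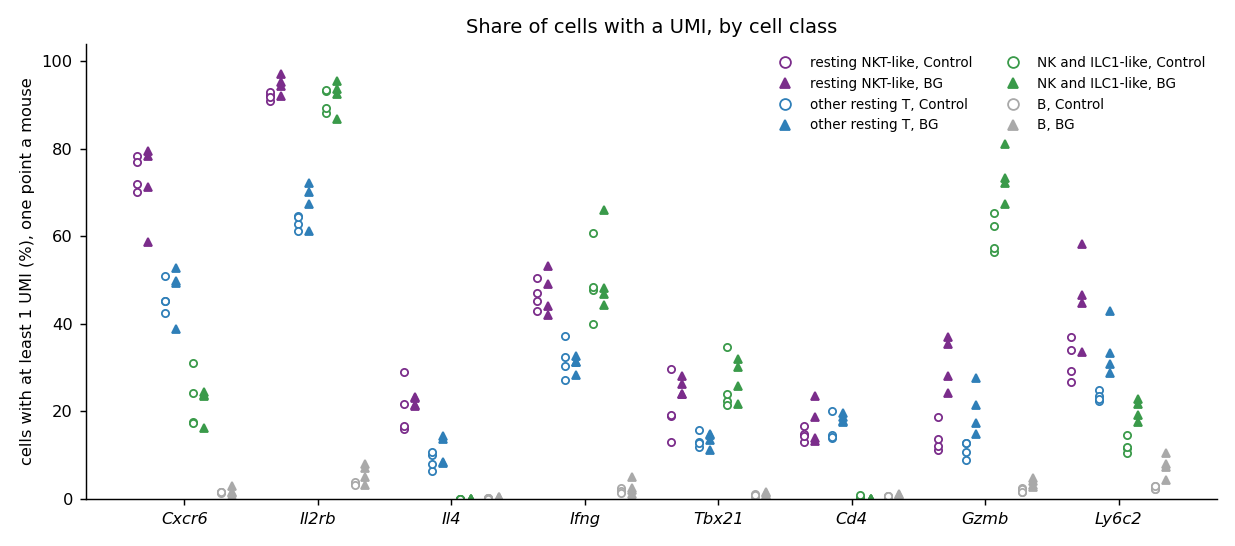
Percent of cells with at least 1 UMI of Cxcr6, Il2rb, Il4, Ifng, Tbx21, Cd4, Gzmb and Ly6c2 in 4 classes of liver cells, where each point is 1 mouse (open circles control, triangles BG). Cxcr6, Il2rb and Il4 lie well above B cells in resting NKT-like cells. Gzmb lies higher with BG without overlap of the mice in resting NKT-like cells and in each other class. The Ly6c2 points of both groups overlap in resting NKT-like cells and in no other class.

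The T cell receptor genes gave a mixed picture of lineage. A constant gene of the beta chain (Trbc1 or Trbc2) was found in 98.2% and 98.0% of cells in control and BG-treated mice, and Trac, of the alpha chain, in 76.1% and 76.3%. A constant gene of the gamma chain (Tcrg-C1, Tcrg-C2 or Tcrg-C4) was found in 276 of 627 cells of control mice and 270 of 527 cells of BG-treated mice. After each chosen cell was thinned to 1500 UMIs, with shallower cells left out (618 of 627 and 523 of 527 stayed), this share was 29.96% in control and 29.97% in BG-treated mice, compared with 19.9% and 21.4% in other resting T cells and 0.656% and 0.779% in B cells. Whether these are gamma delta T cells with no Trdc UMI or NKT cells that transcribe a gamma locus was not tested. Transcripts of the invariant receptor were rare, with 16 UMIs of Trav11 and 12 of Traj18 in all 1154 cells. The 8 V genes listed for NKT receptors could not be tested. The cells are therefore called NKT-like.

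Of the factors that mark NKT subsets, Tbx21 and Gata3 were detected. Tbx21, which encodes T-bet of IFN-γ-producing NKT cells, was found in 20.3% and 25.6% of cells in control and BG-treated mice, with 0.824% and 1.19% in B cells. Gata3, of the IL-4 program, was at 160 and 131 CPM (a gene's UMIs scaled to the total of the summed cells, means of 4 mice) with 306 and 255 UMIs, and Tbx21 at 84.2 and 87.4 CPM with 173 and 159 UMIs. The cytokine gene Il17a had 0 UMIs in all 1154 cells. Foxp3, of regulatory T cells, and Mup20, of hepatocytes, also had 0 UMIs, and a count of 0 allows up to 0.260% of cells with a UMI. Eomes, which marks conventional NK cells, had 1 UMI. The rule asks for a Klrb1c UMI and 0 Ncr1 UMIs, so these counts do not describe NKT cells without Klrb1c UMIs or cells with Ncr1 UMIs. Cd4 was found in 14.7% and 17.4% of cells, and the remainder had no Cd4 UMI at this depth.

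Il4 and Ifng transcripts, which these cells hold before stimulation, lay in part in the same cells. In control mice 63 cells had both, 63 had Il4 only, 232 had Ifng only and 269 had neither. In BG-treated mice the numbers were 63, 54, 194 and 216. In control mice Ifng was thus found in 63 of the Il4-positive cells and not in the other 63, and in 46.3% of the Il4-negative cells. In BG-treated mice the shares were 53.8% and 47.3%. At 1500 UMIs the shares were 35.0% and 29.6% in control and 27.1% and 29.5% in BG-treated mice. The 27.1% rests on 13 cells with both and 35 with Il4 only. All these shares pool the cells of a group without regard to the mouse, and no difference between them was tested.

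The number of resting NKT-like cells did not differ detectably between the groups. They made up 2.90%, 1.43%, 2.16% and 2.59% of kept cells in the control mice and 1.73%, 4.10%, 2.25% and 1.87% in the BG-treated mice. The means were 2.27% ± 0.636 and 2.49% ± 1.10 (SD, n = 4 each, exact permutation test, two-sided p = 0.771, Benjamini-Hochberg adjusted p = 0.868 over 9 shares). Mouse 6, with the highest share, and mouse 2, with the lowest, set the sign of this small difference. It became -0.316 percentage points without mouse 6 and -0.0585 without mouse 2. As a share of T cells the means were 4.58% ± 1.24 and 4.71% ± 2.46 (exact permutation test, p = 0.943, adjusted p = 0.943).

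Of all Zbtb16 and Klrb1c positive T cells, 54.5% ± 5.37 were kept by the rule in control mice and 56.0% ± 8.63 in BG-treated mice (SD, n = 4 each, exact permutation test, p = 0.714). Cells with a UMI of the cycling genes Mki67 or Top2a made up 5.67%, 6.54%, 5.65% and 1.75% in control mice and 6.87%, 4.86%, 14.0% and 15.1% in BG-treated mice. The highest values were those of mice 7 and 8, and the groups overlapped (exact permutation test, p = 0.171, adjusted p = 0.707). Cells with 3 or more of the NF-kB genes made up 17.8% ± 3.68 and 13.2% ± 2.93 (exact permutation test, p = 0.114). None of the 9 shares had an adjusted p below 0.707. With 4 mice per group, the exact test could not give a single share an adjusted p under 0.05, even without overlap of the groups. These tests therefore cannot show that a share was unchanged.

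**Figure D2:**
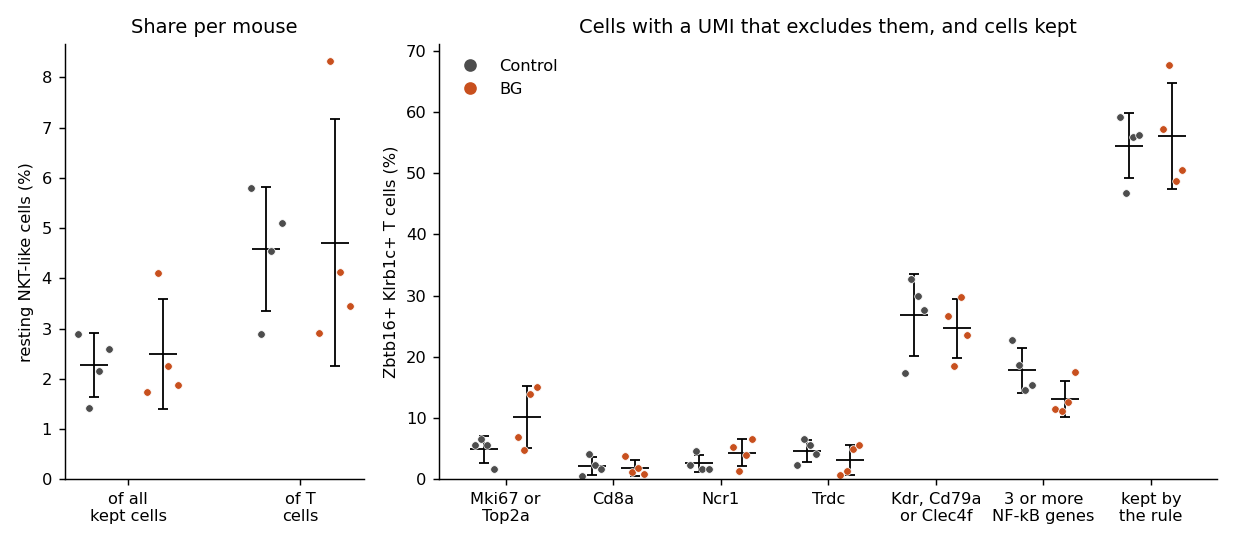
Left, resting NKT-like cells as a percent of kept cells and of T cells. Right, percent of Zbtb16 and Klrb1c positive T cells that had each excluding UMI and that were kept. Each point is 1 mouse and bars are mean ± SD of 4 mice, and the control and BG points overlap in every column shown.

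Cells with 2 of the 7 NF-kB genes, just inside the limit, numbered 139 in control and 124 in BG-treated mice, and those with 3, just outside, numbered 75 and 51. Nfkbia, an NF-kB inhibitor that NF-kB itself induces, was at 338 and 289 CPM just inside and at 587 and 530 CPM just outside. Il4 was at 77.9 and 78.5 CPM inside and at 100.0 and 128 CPM outside, in control and BG-treated mice in that order. In the 32 and 10 cells with 4 of the genes Il4 was lower, at 43.8 and 53.9 CPM. Cells with 5 or 6 of the genes numbered at most 10 in a group. These values pool the cells of a group and were not tested.

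The genes called higher with BG in resting NKT-like cells included 20 type I interferon targets and 5 DNA replication genes, and those called lower included 4 immediate early genes. UMIs were summed per mouse and 5097 genes outside the rule were tested with edgeR's quasi-likelihood test, where a gene was called at a Benjamini-Hochberg adjusted p under 0.05 and an absolute log2 fold change over 0.5. Of these, 33 genes (0.647%) were higher and 10 (0.196%) lower with BG, and the median log2 fold change over all tested genes was -0.01. The values of the 4 control and 4 BG-treated mice did not overlap for 254 of all tested genes (4.98%), and for 27 of the 33 higher and 8 of the 10 lower genes. With 1 mouse left out at a time, 16 of the 43 called genes were called each time (Ifi27l2a, Oas3, Ifit1, Irf7, Isg15, Rtp4, Xaf1, Ly6a, Slfn1, Mcm2, Mcm3, Mcm5, Tuba1b, Gzmb, Fos and Jun). Of these 8 fits, the call was lost in 6 for Gm34455, Ikzf2 and Nme2, in 5 for Apoe, Irf9, Klf4 and Ly6c2, and in 4 for Dut, Hspe1, Ifi206 and Zbp1. Values below are normalized CPM per mouse, in the order 1 to 4 for control and 5 to 8 for BG.

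Of the listed type I interferon targets, 36 of 51 genes were abundant enough to test, 20 of these rose and 0 fell, and all 36 had a positive log2 fold change with a median of 0.82. Without mouse 1 the number that rose was 10, and with cells thinned to 1500 UMIs it was 3. The thinned fit held 377 cells and tested 907 genes, among them 18 of the 43 genes called in all cells. The 3 therefore cannot be set against the 36 tested here. The largest change was in Ifi27l2a (chr12:103442167-103443680, minus strand, mouse build GRCm38), which encodes a small mitochondrial interferon-induced protein. It was at 336, 394, 392 and 432 CPM in control and at 2287, 1535, 2653 and 1422 CPM in BG-treated mice. Every BG-treated mouse lay far above every control mouse. The change was 5.08-fold (log2 fold change 2.34 ± 0.15 (SE), adjusted p = 3.27e-13). It was found in 50.6% ± 2.58 of cells in control and in 92.5% ± 3.86 in BG-treated mice, and at 1500 UMIs in 35.4% and 85.3%, so the difference was also seen at equal depth. B cells at 1500 UMIs held it in 29.6% and 74.8%, so it rose in them as well.

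Other members encode antiviral effectors and their regulators. Oas3, which makes the second messenger that activates RNase L, was at 15.8, 28.2, 19.0 and 13.0 CPM in control and 58.5, 56.6, 76.4 and 54.5 CPM in BG-treated mice (log2 fold change 1.76 ± 0.27, adjusted p = 0.000153). Ifit1, which binds viral RNA caps, was at 21.6, 28.2, 25.3 and 30.3 CPM against 85.6, 71.1, 90.7 and 62.7 CPM (1.56 ± 0.23, adjusted p = 0.000139). For both genes every BG-treated mouse lay above every control mouse. Irf7, the transcription factor that amplifies type I interferon production, was at 23.003, 49.3, 42.1 and 28.1 CPM against 108, 71.1, 117 and 81.7 CPM (1.43 ± 0.24, adjusted p = 0.000594). Ifit3 was at 10.1, 7.04, 16.9 and 17.3 CPM against 31.5, 38.9, 57.3 and 24.5 CPM (1.57 ± 0.33, adjusted p = 0.00881). Groups did not overlap for either. Isg15, a ubiquitin-like modifier, was at 60.4, 102, 80.1 and 90.8 CPM against 248, 203, 189 and 95.4 CPM (1.18 ± 0.21, adjusted p = 0.000904), and there mouse 8 lay within the control range.

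Rtp4 rose by 1.37 ± 0.24 on the log2 scale and Xaf1, a pro-apoptotic interferon target, by 1.27 ± 0.21 (adjusted p = 0.000927 and 0.000646). Ly6a, which encodes Sca-1 on T cells, was at 318, 324, 350 and 367 CPM in control and 666, 578, 726 and 583 CPM in BG-treated mice, with little spread in either group (0.90 ± 0.12, adjusted p = 2.09e-05). Bst2, which tethers budding virions, rose by 1.01 ± 0.20 (adjusted p = 0.00362). Irf9, a DNA-binding factor of type I interferon signaling, rose by 0.87 ± 0.21 (adjusted p = 0.0281). Of 14 tested receptors and signaling genes of interferons 2 rose, Irf9 among them, and the median was -0.01. The other listed targets that rose were the nuclear DNA sensors Ifi213 (1.08 ± 0.22) and Ifi206 (0.73 ± 0.17), the T cell growth regulator Slfn1 (1.03 ± 0.17), Lgals3bp (0.94 ± 0.20), Rnf213 (0.92 ± 0.18), the RNA sensor Ddx58 (0.86 ± 0.19), the Z-nucleic acid sensor Zbp1 (0.78 ± 0.19) and Trim30a (0.77 ± 0.16), all in log2 fold change ± SE. For these 8 genes the groups did not overlap.

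Of 16 tested GTPases and regulators that respond mainly to IFN-γ, 0 were called by edgeR or DESeq2, 7 had an unadjusted p under 0.05, 13 had a positive log2 fold change and the median was 0.33. Gbp7 gave 0.48 ± 0.16 (adjusted p = 0.2097) and Ifi47 0.32 ± 0.15 (adjusted p = 0.495). Of 20 MHC class I genes 0 were called by either tool and 6 had an unadjusted p under 0.05, with a median of 0.10 and B2m, the invariant light chain, at 0.26 ± 0.10 (adjusted p = 0.329). Both shares with an unadjusted p under 0.05 lay above that of all 5097 tested genes, of which 466 had one. As 0.647% of all genes were called higher, 0 calls in lists of 16 and 20 do not show that these genes were unchanged.

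Isg15, Ifit1, Ifit3 and Oas3 are shown by their upstream sequence because they share a short motif. Interferon-stimulated genes are classically switched on through elements built of repeated GAAA cores, and a pair of GAAA separated by any 2 bases (NN) was searched on both strands in windows from 250 bases before to 50 after the transcription start (RefSeq, GRCm38.p6). A window may hold overlapping matches. The motif lay in 3.44% of all 32851 promoters. Counted by gene, it lay in a promoter of 3.99% of all 27025 genes in the table and of 4.58% of the tested genes that had one. Of the 33 genes that rose 26 had a promoter in the table, and 9 of these (34.6%) held the motif, all 9 from the type I interferon list. A second motif searched, TTC and GAA separated by any 3 bases, lay in a promoter of 8.11% of the tested genes and of 4 of the 26 (15.4%). The GAAA pair was found in 0 of the 5 DNA replication genes that rose and 0 of 8 matched genes that fell. The 160 bases before the start follow, 5′ to 3′ on the strand of the gene, with matches on either strand in capitals.

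Isg15 (chr4:156200819-156200978, minus strand): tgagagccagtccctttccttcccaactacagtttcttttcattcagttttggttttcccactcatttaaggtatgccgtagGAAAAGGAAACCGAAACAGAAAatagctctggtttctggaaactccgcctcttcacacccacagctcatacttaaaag
Ifit1 (chr19:34640729-34640888, plus strand): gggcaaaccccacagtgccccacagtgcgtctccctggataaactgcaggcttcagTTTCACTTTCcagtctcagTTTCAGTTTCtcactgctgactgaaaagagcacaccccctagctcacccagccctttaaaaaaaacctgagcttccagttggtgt
Ifit3 (chr19:34583369-34583528, plus strand): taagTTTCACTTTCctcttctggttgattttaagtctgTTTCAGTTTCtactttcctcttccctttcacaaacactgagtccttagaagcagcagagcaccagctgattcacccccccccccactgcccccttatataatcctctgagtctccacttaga
Oas3 (chr5:120777660-120777819, minus strand): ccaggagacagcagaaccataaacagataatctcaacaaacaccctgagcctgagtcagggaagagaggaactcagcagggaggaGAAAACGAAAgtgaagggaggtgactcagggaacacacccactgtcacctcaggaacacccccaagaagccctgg

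Isg15 held 3 overlapping matches, starting at -78, -72 and -66 from the start site. Ifit1 held 2, at -104 and -85, and Ifit3 held 2, at -156 and -122. Oas3 held 1, at -75. A match describes these letters and is no evidence of binding.

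Of 20 listed DNA replication genes 10 were testable in these cells, from which those with Mki67 or Top2a had been left out. Of the 10, 5 rose, 0 fell, and all 10 had a positive log2 fold change with a median of 1.07. The number that rose was 3 without mouse 1 and 3 without mouse 7, and 0 after thinning to 1500 UMIs, with 0 NF-kB genes allowed and without cells holding other cell types' markers. In the settings with 0, Mcm2, Mcm3, Mcm5 and Mcm7 were under the count filter, so these counts cannot show whether their change was lost. Mcm2, Mcm3, Mcm5 and Mcm7 encode subunits of the replicative helicase that is loaded onto DNA before S phase. Mcm3 (chr1:20802968-20820312, minus strand) was at 12.9, 10.6, 21.1 and 30.3 CPM in control and 67.5, 74.4, 119 and 46.3 CPM in BG-treated mice (log2 fold change 2.04 ± 0.30, adjusted p = 0.000113). Mcm2 was at 20.1, 35.2, 21.1 and 23.8 CPM against 67.5, 60.0, 127 and 62.7 CPM (1.71 ± 0.27, adjusted p = 0.000379). Neither gene overlapped between the groups, and mouse 7 was the highest for both.

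Mcm7 was at 18.7, 10.6, 27.4 and 23.8 CPM against 63.0, 43.3, 100.3 and 38.2 CPM (1.48 ± 0.31, adjusted p = 0.00652). Mcm5 was at 20.1, 38.7, 8.43 and 13.0 CPM against 81.1, 57.8, 95.5 and 35.4 CPM (1.82 ± 0.32, adjusted p = 0.000925), with mouse 8 inside the control range. Dut, which keeps uracil out of DNA, was at 30.2, 38.7, 40.0 and 21.6 CPM against 54.0, 53.3, 131 and 49.0 CPM (1.15 ± 0.29, adjusted p = 0.0365). Mouse 7 was again the highest in all 3. Without mouse 7, Mcm7 gave 1.12 (adjusted p = 0.113) and Dut 0.71 (adjusted p = 0.371). Tuba1b, an alpha tubulin that was in no list, rose by 1.14 ± 0.22 (adjusted p = 0.0025). The other 2 genes that rose outside the lists were Serpina3f, a protease inhibitor (1.12 ± 0.22, adjusted p = 0.00362), and Nme2, a nucleoside diphosphate kinase (0.57 ± 0.14, adjusted p = 0.0452), whose groups overlapped and whose call was lost in 13 of 22 alternatives.

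A UMI of Mcm2, Mcm3, Mcm5 or Mcm7 was found in 21.2%, 16%, 16.1% and 18.6% of resting NKT-like cells of the control mice and in 40.0%, 40.1%, 62.0% and 32.7% of those of the BG-treated mice. At 1500 UMIs the means were 9.51% ± 1.81 and 24.1% ± 9.24, compared with 10.8% and 19.8% in other resting T cells and 9.73% and 11.99% in B cells. Cells with a UMI of a gamma chain constant gene were then left out. In the remaining 608 cells 0 of the DNA replication genes were called, with Mcm2 at 1.25 (adjusted p = 0.154) and Dut at 0.64 (adjusted p = 0.711), while Mcm3, Mcm5 and Mcm7 were under the count filter. The type I interferon count was 19 in the same cells. Of the 43 genes called in all cells, 26 were still called in them and 4 were under the filter, namely these 3 Mcm genes and Ifit3. The 13 that lost their call were Mcm2, Dut, Tuba1b, Nme2, Irf9, Lgals3bp, Hspa8, Hsp90ab1, Ly6c2, Klf4, Ikzf2, Gm34455 and Apoe.

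Of 10 tested heat shock genes, which encode chaperones, 3 rose and the median was 0.38. Hspa8, the constitutive Hsp70, was at 1117, 1580, 1544 and 1738 CPM in control and 2310, 2050, 2378 and 2289 CPM in BG-treated mice, without overlap (0.60 ± 0.11, adjusted p = 0.0025). Hsp90ab1 rose by 0.52 ± 0.11 (adjusted p = 0.00973) and the mitochondrial Hspe1 by 0.65 ± 0.15 (adjusted p = 0.0204). Mouse 1 was the lowest control for Hspa8 and Hsp90ab1, and without it 0 of the 3 were called, with Hspa8 at 0.47 (adjusted p = 0.0241) and thus under the size limit. Without mouse 5 and without mouse 7 the number was 1 each time. Of 12 glycolysis genes 0 were called by edgeR or DESeq2, and 4 had an unadjusted p under 0.05, against 466 of all 5097 genes. Of the 12, 10 had a positive log2 fold change and the median was 0.25.

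Gzmb, the protease of cytotoxic granules, was the single cytotoxic gene of 10 tested that rose. It was at 60.4, 106, 88.5 and 136 CPM in control and 203, 261, 248 and 128 CPM in BG-treated mice (1.18 ± 0.20, adjusted p = 0.000748), with mouse 8 inside the control range. A UMI of it was found in 11.1%, 12%, 13.7% and 18.6% of cells and in 28.0%, 35.4%, 37.0% and 24.3%, which did not overlap. At 1500 UMIs the shares were 6.12% to 13.4% and 12.3% to 23.7%, which overlapped, with means of 9.39% and 17.8%, compared with 2.09% and 3.25% in B cells. Nkg7, another granule gene, gave 0.17 ± 0.10 (adjusted p = 0.667). Ly6c2, a surface protein of memory-type lymphocytes, was at 293, 370, 335 and 266 CPM against 599, 542, 721 and 248 CPM (0.75 ± 0.18, adjusted p = 0.0281), and mouse 8 lay below all the control mice. The call of Ly6c2 was lost in 12 of 22 alternatives.

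Immediate early genes encode the AP-1 factors and other short-lived products of recent stimulation. Of 18 tested members 4 fell with BG, 0 rose, 1 had a positive log2 fold change and the median was -0.35. Fos (chr12:85473890-85477273, plus strand) was at 1212, 1133, 1085 and 1096 CPM in control and 774, 558, 745 and 798 CPM in BG-treated mice (-0.67 ± 0.11, adjusted p = 0.000646). Jun was at 847, 1066, 1304 and 1319 CPM against 729.5, 629, 755 and 801 CPM (-0.64 ± 0.12, adjusted p = 0.00284). Fosb was at 891, 809, 805 and 936 CPM against 671, 454, 547 and 616 CPM (-0.61 ± 0.12, adjusted p = 0.00284). Each BG-treated mouse lay below each control mouse for all 3. Btg2, which restrains proliferation, was at 582, 591, 594 and 694 CPM against 374, 451, 413 and 450 CPM, also without overlap (-0.53 ± 0.11, adjusted p = 0.00893). A Fos UMI was found in 72.9% of cells in control and 66.4% in BG-treated mice, and at 1500 UMIs in 58.5% and 48.9%.

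Klf2, a factor that keeps T cells quiescent and recirculating, was at 247, 299, 360 and 268 CPM in control and 189, 147, 201 and 188 CPM in BG-treated mice, without overlap (-0.72 ± 0.15, adjusted p = 0.00558). Without mouse 6 it gave -0.60 (adjusted p = 0.101), and without mouse 3 also -0.60 (adjusted p = 0.0674). Ikzf2, which encodes Helios, was at 112, 127, 120 and 119 CPM against 49.5, 77.8, 38.2 and 92.6 CPM (-0.82 ± 0.20, adjusted p = 0.0345). The control mice lay close together for Ikzf2 and the BG-treated mice were spread. Its call was lost in 14 of 20 alternatives. The change in Ikzf2 was -0.06 without cells holding hepatocyte, KC and macrophage, B cell or endothelial markers. Of 15 tested lineage transcription factors these 2 were called, and the median was -0.11. Klf2 was also the single gene called of 10 in the quiescence and memory list, whose median was -0.22. Tbx21 gave -0.06 ± 0.20 (adjusted p = 0.966) and Gata3 -0.27 ± 0.16 (adjusted p = 0.650). Klf4, a related factor in no list, was at 76.2, 155, 110 and 90.8 CPM against 99.1, 45.5, 47.8 and 40.9 CPM (-0.96 ± 0.24, adjusted p = 0.0345), mouse 5 lay among the control mice, and the call was lost in 12 of 20 alternatives. The unnamed transcript Gm34455 gave -0.93 ± 0.22 (adjusted p = 0.0281), and its call was lost in 11 of 18 alternatives.

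Ccl4 (chr11:83662584-83664683, plus strand), a chemokine that attracts myeloid cells and lymphocytes, was the only one of 13 effector cytokines and death ligands that was called. It was at 155, 80.9, 84.3 and 112 CPM in control and 76.5, 32.2, 64.5 and 13.6 CPM in BG-treated mice (-1.42 ± 0.27, adjusted p = 0.00284). The groups were separated by a small gap between mouse 2 and mouse 5. The call was lost without mouse 6 (-1.19, adjusted p = 0.0691), with DESeq2 (adjusted p = 0.482) and with robust estimation (adjusted p = 0.149). Ccl4 was found in 6.46% and 6.18% of cells, and at 1500 UMIs in 4.79% and 3.08%, which lay near the B cell shares of 4.57% and 5.41%, so the share of cells shows no expression above that background.

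The cytokine genes that NKT cells are known for did not change detectably. Il4 was at 71.9, 123, 69.5 and 73.5 CPM in control and 76.6, 64.4, 69.3 and 79.0 CPM in BG-treated mice (-0.19 ± 0.20, adjusted p = 0.850). Ifng was at 338, 243, 343 and 313 CPM against 360, 319, 248 and 242 CPM (-0.11 ± 0.14, adjusted p = 0.888). Cxcr6 was at 594, 553, 518 and 508 CPM against 383, 481, 394 and 594 CPM (-0.22 ± 0.13, adjusted p = 0.645). For each of these the groups overlapped. Il2rb gave 0.26 ± 0.11 (adjusted p = 0.452) and Cd4 0.13 ± 0.21 (adjusted p = 0.921). Of the genes of the rule, Zbtb16 was at 367, 408, 468 and 432 CPM against 396, 335, 308 and 371 CPM, and Klrb1c at 490, 531, 558 and 560 CPM against 419, 430, 473 and 469 CPM.

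Lists of NK receptors (7 tested), SLAM family and SAP signaling genes (9), cytokine receptors (14), checkpoints (10), T cell receptor signaling genes (19), other NF-kB genes (16) and Bcl2 family genes (6) had 0 genes called by edgeR or DESeq2, and 3 of their 80 tested genes had an unadjusted p under 0.05. Their medians lay between -0.09 and 0.14. Tnfaip3, an NF-kB inhibitor, gave -0.11 ± 0.13 (adjusted p = 0.870) and Nfkbia 0.01 ± 0.15 (adjusted p = 0.995). Bcl2, the survival factor, was at 476, 475, 600.5 and 599 CPM against 734, 726, 640.0 and 801 CPM without overlap, but did not pass the test (0.43 ± 0.12, adjusted p = 0.0703). Over all 5097 tested genes, 466 had an unadjusted p under 0.05.

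**Figure D3:**
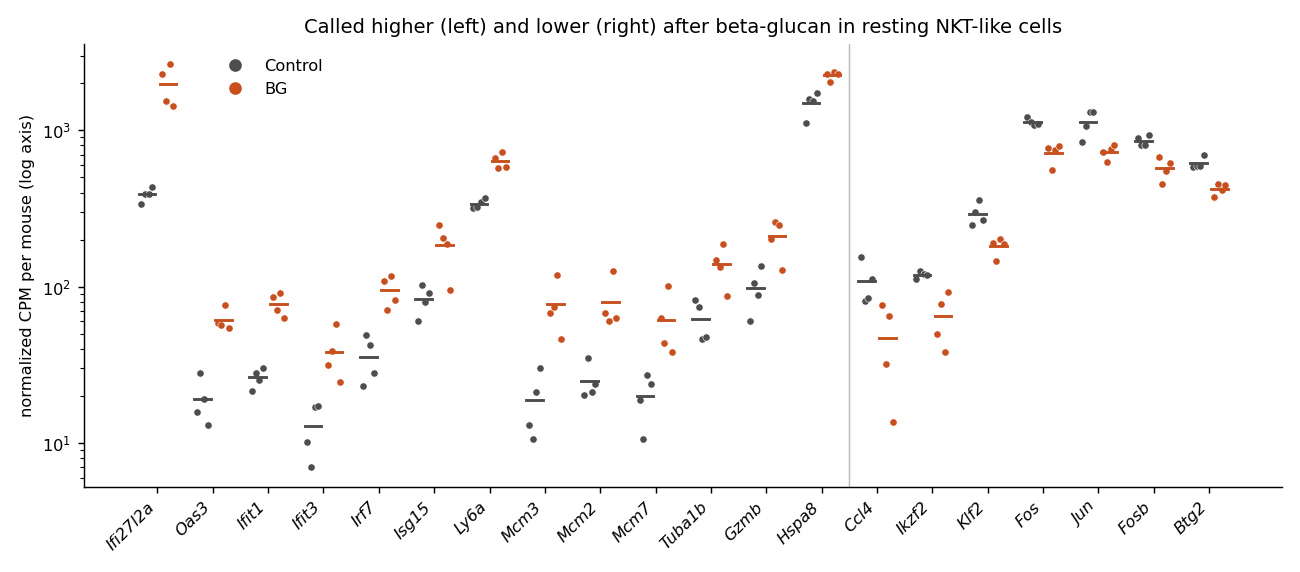
Normalized CPM of 20 called genes in resting NKT-like cells on a log axis, where each point is 1 mouse (control or BG) and lines are means of 4 mice. Ifi27l2a separates the groups most widely, and mouse 7 is the highest point of the Mcm genes.

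**Figure D4:**
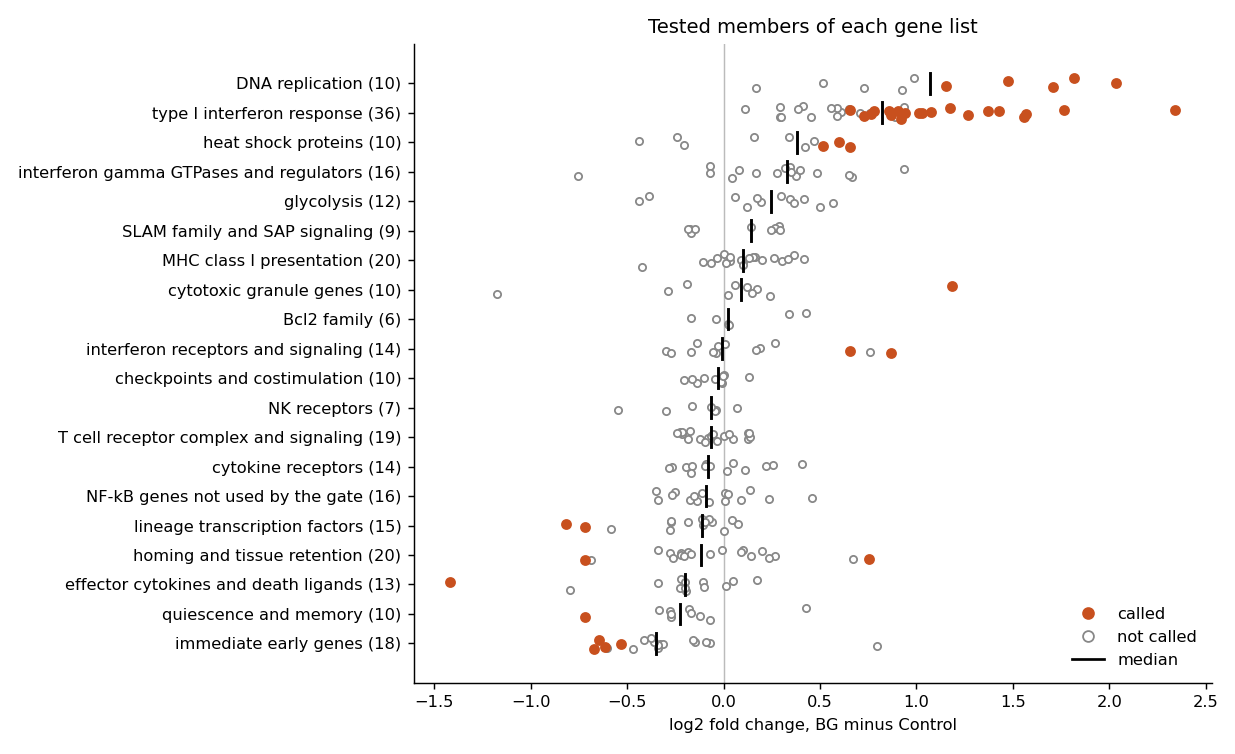
Log2 fold change (BG over control) of each tested gene by gene list, with called genes filled, the median as a line and the number tested in parentheses. The type I interferon list lies wholly above 0 (36 genes, median 0.82), and the immediate early list has 1 of its 18 genes above 0.

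Transcripts listed as markers of other cell types were present, and whether the cells made some of them themselves was not tested. Summed over a list of 10 KC and macrophage markers, resting NKT-like cells held 55.7, 623, 93.7 and 204 CPM in control and 82.2, 22.9, 130 and 142 CPM in BG-treated mice, with Clec4f at 0 by the rule. Mouse 2 stood out on this list. Apoe, a lipid carrier that KCs and hepatocytes make, had the same order over the control mice, at 185, 1355, 346 and 603 CPM against 185, 109, 377 and 253 CPM (-1.40 ± 0.34, adjusted p = 0.0345). Without mouse 2 it gave -0.72 (adjusted p = 0.236), and its sign turned when both Cd3e and Cd3d were required (0.36) or cells were thinned (0.21). Hepatocyte markers summed to 137 to 361 CPM and 109 to 400 CPM, B cell markers to 200 to 257 CPM and 111 to 215 CPM, and endothelial markers to 95.7 to 273 CPM and 57.5 to 288 CPM. NK cell markers summed to 228 to 423 CPM and 122 to 403 CPM, with Ncr1 at 0 by the rule, and gamma delta T cell markers to 277 to 384 CPM and 333 to 362 CPM, with Trdc and Trdv4 at 0. Markers of regulatory T cells, with Foxp3 at 0, summed to 197 to 233 CPM and 120 to 233 CPM, and those of plasmacytoid dendritic cells to 78.5 to 246.5 CPM and 90.4 to 209.5 CPM. Most of the former was Il2ra (76.7 to 138 CPM over all mice) and Ikzf2 (33.6 to 120 CPM). Ccr9 (77.1 to 160 CPM) was the largest part of the latter. CD8 T cell and neutrophil markers stayed under 10 CPM in each mouse. Cells with a UMI of the listed hepatocyte, KC and macrophage, B cell or endothelial markers were then left out. Alb, Apoa1, Apoa2, Apoc1, Ttr and Igkc were not used for this, nor were the markers of the other cell types. In the 432 cells that stayed, 15 genes were higher and 2 lower. The BG-treated mice also had deeper cells than 3 of the 4 control mice, with library medians of 3413, 2625.5, 2701.5 and 2732 UMIs in control and 2761, 3648, 4161 and 3401 in BG-treated mice. The part of other cells' RNA and of depth in the remaining results was not tested.

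Compared with other resting T cells, which met the same limits but had 0 UMIs of Zbtb16 and Klrb1c, resting NKT-like cells had far lower levels of genes of recirculating naive and memory cells. Because Zbtb16 and Klrb1c are low in counts, the other T cells include cells whose transcripts of these genes were missed. With the mouse as a block, 82 of 8262 tested genes (0.992%) were higher and 208 (2.52%) lower, by edgeR. After thinning to 1500 UMIs before the rule was applied, 4 and 84 were called. Ccr7, which guides cells into lymph nodes, was at 4.72 against 82.7 CPM (-4.48 ± 0.22, adjusted p = 7.58e-24), lower in 8 of 8 mice, and S1pr1, which lets them leave, at 7.99 against 82.8 CPM. Tcf7 and Lef1, transcription factors of naive and stem-like T cells, were at 56.8 against 203 CPM and at 91.9 against 220 CPM. Of 14 quiescence and memory genes 10 were lower and 0 higher, with a median of -0.94, and Ccr7, S1pr1, Tcf7, Lef1 and Klf2 kept their calls after thinning.

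The higher genes had smaller differences. Lyst, a regulator of lysosome-related organelles, was at 504 against 322 CPM (0.65 ± 0.05, adjusted p = 4.81e-16), higher in 8 of 8 mice and still called after thinning. Tbx21 was at 80.1 against 56.4 CPM (0.53 ± 0.10, adjusted p = 8.65e-05), higher in 7 of 8 mice, and at 0.82 after thinning. Il4 was at 73.1 against 42.8 CPM (0.72 ± 0.11, adjusted p = 1.84e-06), in 8 of 8 mice. Il2ra, Il12rb1, Fasl, Ccr2, Klrc2 and Klre1 were also higher. After thinning, the differences in Il4 (0.45, adjusted p = 0.654), Il2ra (0.55, adjusted p = 0.203), Il12rb1 (0.58, adjusted p = 0.628) and Fasl (0.38, adjusted p = 0.686) kept their sign without a call. Cxcr6 was at 469 against 335 CPM (0.49 ± 0.05, adjusted p = 2.34e-11), just under the size limit.

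Compared with NK and ILC1-like cells, which carried Klrb1c and Ncr1 without Cd3 transcripts, 403 of 4396 tested genes (9.17%) were higher and 403 (9.17%) lower. Thinning left 125 and 116. Resting NKT-like cells held far less of several cytotoxic and chemokine genes. Gzma was at 38.2 against 5268 CPM, Prf1, the pore-forming protein, at 37.8 against 534 CPM, and Gzmb at 161 against 1258 CPM. Ccl5 was at 1670.4 against 11094 CPM and Xcl1, which attracts cross-presenting dendritic cells, at 334 against 1621 CPM. Of 10 cytotoxic granule genes 8 were lower, and of 15 NK receptors 14 were lower. Each gene named in this comparison differed in the same direction in 8 of 8 mice.

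On the higher side, Il2ra, the alpha chain of the IL-2 receptor, was at 112 against 6.70 CPM, Cxcr6 at 526 against 128 CPM, and the transcription factors Rora and Bcl11b at 183 against 42.1 CPM and 288 against 53.3 CPM. Of 18 T cell receptor genes 13 were higher and 1 was lower. This count and that of the NK receptors follow in part from choosing the classes on opposite Cd3 and Ncr1 UMIs. Il4 was at 82.0 CPM against 0 UMIs. Ifi27l2a and Ly6a were at 1235 against 81.8 CPM and at 511 against 29.96 CPM, and both rose with BG in resting NKT-like cells.

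The change with BG in resting NKT-like cells was then set beside that in the other lymphocytes, whose values come from the same mice. For the 33 genes that rose, the difference from other resting T cells ranged from -0.41 for Rtp4 to 0.58 for Mcm3 on the log2 scale, with a median of 0.01 and a median SE of 0.18. For the 10 that fell it ranged from -0.82 for Ccl4 to -0.06 for Fosb. In an interaction test over 8905 genes, edgeR called 0 genes (0%) as more raised and 4 (0.0449%) as more lowered in resting NKT-like cells, with 444 at an unadjusted p under 0.05. The 4 were the hemoglobin genes Hba-a1, Hba-a2, Hbb-bs and Hbb-bt, of which 781 of the 796 UMIs in mouse 1 lay in 1 cell. The other libraries held 0 to 13 such UMIs. Without mouse 1, 1 gene was called as more lowered.

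Side by side, Ifi27l2a changed by 2.34 in resting NKT-like cells, 2.24 in other resting T cells and 3.33 in NK and ILC1-like cells. Irf7 changed by 1.43, 1.52 and 1.27, and Hspa8 by 0.60, 0.50 and 0.58. Mcm2 changed by 1.71, 1.24 and 1.47, Gzmb by 1.18, 1.06 and 0.70, and Fos by -0.67, -0.52 and -0.65. None of the 33 genes that rose had an adjusted p under 0.05 for the difference from either class. Against NK and ILC1-like cells, edgeR called 0 of 5203 genes (0%) as more raised and 1 (0.0192%) as more lowered, with 264 at an unadjusted p under 0.05. That gene was Ccl4, which changed by -1.42 in resting NKT-like cells and by -0.06 in NK and ILC1-like cells (difference -1.42 ± 0.22, adjusted p = 0.000935). Without mouse 6 the difference was -1.19 (adjusted p = 0.195), and against other resting T cells it was -0.82 ± 0.24 (adjusted p = 0.460).

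**Figure D5:**
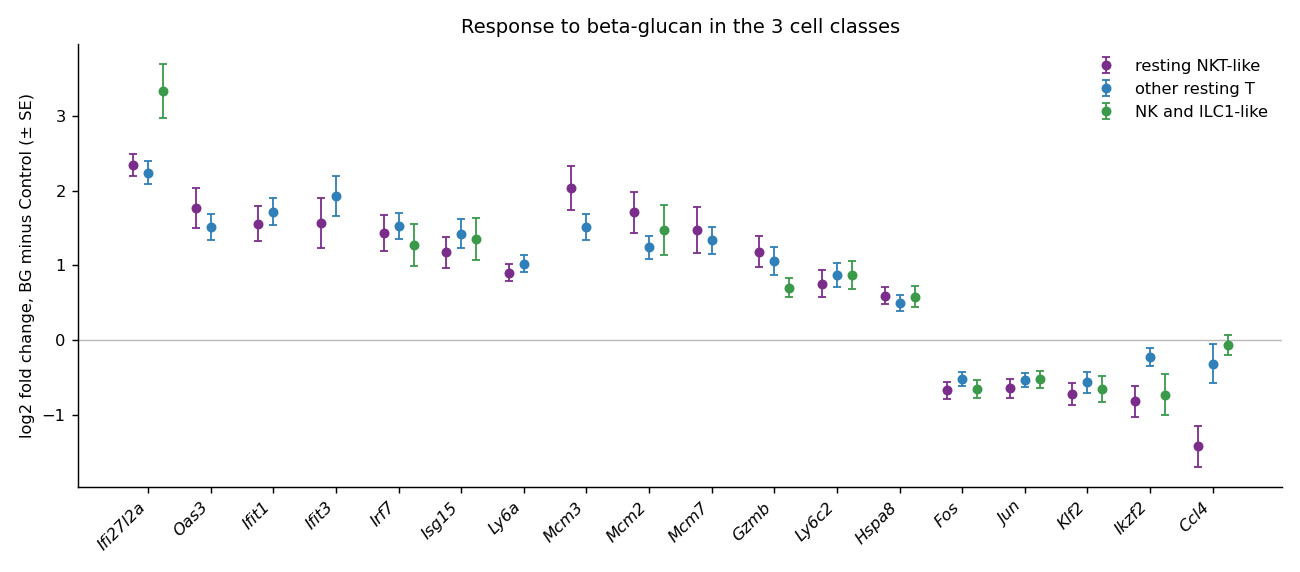
Log2 fold change (BG over control) ± SE of 18 genes in resting NKT-like cells, other resting T cells and NK and ILC1-like cells of the same mice. Points of a gene lie close together for most genes, and Ccl4 is lower in resting NKT-like cells (-1.42) than in NK and ILC1-like cells (-0.06).

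Resting NKT-like cells with and without a Cd4 UMI were compared within each mouse. Of 2838 tested genes edgeR called 0 as higher (0%) and 0 as lower (0%) in Cd4-positive cells, with 157 at an unadjusted p under 0.05. Fos had an adjusted p of 0.0070 at -0.49 ± 0.10, just under the size limit, and was lower in Cd4-positive cells of 7 of 8 mice. Ifng gave -0.46 ± 0.15 (adjusted p = 0.505) and Il4 0.06 ± 0.23 (adjusted p = 0.998). The change with BG differed between these cells for 0 of 3609 genes in either direction (0% each), with 132 at an unadjusted p under 0.05. Few cells per mouse had a Cd4 UMI, and cells without one may have had the transcript missed.

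The NKT-like cells with 3 or more of the NF-kB genes numbered 186, with 7 to 54 per mouse. Mouse 5 had under 10 of these cells and was left out. Of 1148 tested genes edgeR called 1 as higher (0.0871%) and 1 as lower (0.0871%) with BG. These were Ifi27l2a (1.97 ± 0.26, adjusted p = 0.00186) and Ccl5, a chemokine of memory lymphocytes (-0.94 ± 0.17, adjusted p = 0.0374). In resting NKT-like cells Ccl5 gave -0.22 ± 0.11 (adjusted p = 0.557), and the difference between these values was not tested.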

How the data were processed

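The deposited matrices hold raw UMI counts per gene and barcode for 8 libraries and 32285 genes, which the authors made from 10x 3' v3.1 reads with Cell Ranger (version 6.1.2 per the file headers, mm10 per the submitters' notes, introns included per the study's methods). Libraries held 39612380 to 60654583 UMIs. Cells were chosen as described above, and no doublet caller was run. The labels number the libraries 1 to 8 and each was taken as 1 mouse, so p-values measure the spread between these libraries. In all, 307 barcodes of kept cells occurred in more than 1 library, 18 of them as a resting NKT-like cell in 1 library.

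UMIs were summed per mouse and class (at least 10 cells). Genes were filtered with filterByExpr, normalized with TMM and tested with edgeR 4.0.16 (quasi-likelihood F test, R 4.3.3), with Benjamini-Hochberg adjusted p under 0.05 and absolute log2 fold change over 0.5 as the call. Genes of the rule were left out before counting. Comparisons between classes had the mouse as a block, and differences of response used an interaction term. DESeq2 1.42.0 was the alternative test. SEs are the absolute log2 fold change over the square root of F. Shares were compared by exact permutation over mice (SciPy 1.17.1), and floors for a count of 0 are 3 counts and cover counting error only. The fits were checked on simulated data.

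Named genes were the up to 12 largest and 12 smallest called changes without overlap of the groups, up to 4 members per gene list (called ones first, otherwise the most abundant), the markers of the cells and Tbx21, Gata3, Ifng and Cd4, among others not reported here, and for classes up to 6 genes per side by p plus list members. Bst2, Isg15, Apoe, Tuba1b and the genes called beyond this rule were named after their values were seen. The cells, 21 gene lists and 12 marker lists were chosen with earlier results of these data known. Of the listed symbols 2 were not analysed here. Gene coordinates are those of GENCODE vM21 (GRCm38), joined by gene ID.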

Additional observations from a re-analysis of the deposited data

Results flagged for a closer look

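Of 120 groups of 4 values examined, 9 held 1 mouse apart from the others by Dixon's criterion, and chance alone gives about 1 in 20. Mouse 1 had the deepest cells of the control group (median 3413 UMIs per resting NKT-like cell), and it had the highest summed level of CD8 T cell markers (5.71 CPM, with the other control mice at 0) and of red cell and platelet markers (1137 CPM). Mouse 6 had the lowest median mitochondrial share of the BG group (11.9%). Mouse 7 was apart for Mcm2 (127 CPM) and Dut (131 CPM), mouse 5 for Klf4 (99.1 CPM), and mouse 4 for Btg2 (694 CPM). Mouse 6 was apart on the low side for Rnf213 (139.95 CPM). The change with BG differed from that of other resting T cells, by the interaction test, for Hbb-bt (-5.22), Hbb-bs (-3.59), Hba-a1 (-4.08) and Hba-a2 (-3.04, all log2), and 781 of the 796 hemoglobin and platelet gene UMIs of mouse 1 lay in 1 cell. It differed from that of NK and ILC1-like cells for Ccl4 (-1.42).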

How the results depend on the processing

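Between BG and control, 33 genes were called higher and 10 lower. These became 4 and 4 with cells thinned to 1500 UMIs (377 cells, 907 genes tested), 64 and 32 without a count filter, 10 and 3 with 0 NF-kB genes allowed, 124 and 25 with Zbtb16 not required, 2 and 0 at a mitochondrial limit of 10% (315 cells), 15 and 2 without cells holding other cell types' markers, and 25 and 5 with DESeq2. Leaving out 1 mouse gave 15 (without mouse 1) to 45 higher and 4 (without mouse 6) to 13 lower, with 6 lower without mouse 3. Leaving out cells with a gamma chain UMI, an alternative chosen after the data were seen, gave 26 and 10. Of 863 values of the 43 genes under alternatives, 667 kept the call, 194 did not, and 2 turned sign, both of Apoe (0.21 thinned, 0.36 with both Cd3 genes required). Ifi27l2a was called in 22 of 22. The type I interferon count of 20 was 10 without mouse 1 and 3 after thinning, and the DNA replication count of 5 was 0 after thinning, with 0 NF-kB genes allowed and without other markers. The thinned and stricter settings hold fewer cells and test fewer genes. In the settings named here with a DNA replication count of 0, Mcm2, Mcm3, Mcm5 and Mcm7 were under the count filter. Against other resting T cells thinning gave 4 higher and 84 lower, and leaving out a mouse gave 58 to 93 and 183 to 219. Against NK and ILC1-like cells thinning gave 125 and 116, and at least 10 UMIs per mouse left 267 lower. For the difference of response, the 4 genes against T cells were 1 at 10 UMIs, 0 after thinning and 0 (without mouse 7) to 15 (without mouse 5) without 1 mouse, with 8 without mouse 3 and 1 without mouse 1, and higher genes 0 to 1. The 1 gene against NK cells was 0 after thinning and 0 (without mouse 6) to 3 without 1 mouse. In Cd4-positive cells 0 to 1 gene was lower, likewise for the response. Hba-a1 (0.33) and Hbb-bt (0.36) turned sign after thinning. Without 1 mouse Hbb-bt ranged from -9.20 to 2.62 and Hba-a2 from -3.49 to 0.60, both highest without mouse 1. The share difference of 0.221 points of kept cells was -0.0723 after thinning and -0.316 (without mouse 6) to 0.473 without 1 mouse. Of T cells, 0.121 became -0.157 without the NF-kB limit, -0.0657 with 0 NF-kB genes, -0.163 with up to 5000 genes, -0.176 after thinning, and -1.08 to 0.716 without 1 mouse. Other causes were not tested. Thinned fits of Cd4-positive against Cd4-negative cells were not run, as too few cells stayed. No paired analysis was possible because the control and BG libraries share no replicate number.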
